A study of Mus musculus with 4 samples.

Results

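Btaf1, Ide, Fgfbp3, Cpeb3, Tnks2, Hectd2, Ppp1r3c and March5 lie side by side on mouse chromosome 19. They are 8 of the 19465 features that were measured, and they were chosen by their symbols. The choice was made with the difference between the diets in these same sections already known, so every value of HF against MF for them is given below as a description with no p-value. Where calls of the fit across all genes are counted for them, nothing is read from those calls. Brains of wild-type C57BL/6J mice were studied by Visium-FFPE, in which pairs of probes bind the RNA of a fixed tissue section and are counted as unique molecular identifiers (UMIs) in barcoded spots. The dams received a diet with 2 mg/kg folic acid (FA) in the MF group or 20 mg/kg in the HF group, from 2 weeks before mating until the end of lactation, and their male pups were taken at postnatal day 21. Each diet has 2 coronal sections from 2 biological replicates, and litters and dams are not named in the labels. Since the pups were exposed both in the womb and through the milk, these periods cannot be told apart.

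The 8 genes encode proteins of unlike function. Btaf1 is an ATPase that strips the TATA-binding protein, TBP, from DNA and so frees it for other promoters. Ide is the insulin-degrading enzyme, a zinc peptidase that cuts insulin and amyloid beta, and Fgfbp3 is a secreted carrier of fibroblast growth factors. Cpeb3 binds messenger RNAs and holds back their translation at synapses, where it is known for its part in memory. Tnks2 is a tankyrase, which attaches ADP-ribose chains to proteins such as axin. Ppp1r3c brings protein phosphatase 1 to glycogen. Hectd2 and March5 are ubiquitin ligases, of the HECT class and of the outer mitochondrial membrane, respectively.

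In GRCm38 the 8 genes span chr19:36554639-37337852, a stretch of 783.2 kb. They are all of the protein-coding genes that GENCODE vM21 places there, and the stretch holds 15 annotated genes in total. The order is Hectd2 (ENSMUSG00000041180, 36554639 to 36621135, forward strand), Ppp1r3c (ENSMUSG00000067279, 36731731 to 36736653, reverse), Tnks2 (ENSMUSG00000024811, 36834232 to 36893477, forward), Fgfbp3 (ENSMUSG00000047632, 36917550 to 36919615, reverse), Btaf1 (ENSMUSG00000040565, 36926079 to 37012752, forward), Cpeb3 (ENSMUSG00000039652, 37021291 to 37208601, reverse), March5 (ENSMUSG00000023307, 37207543 to 37222151, forward) and Ide (ENSMUSG00000056999, 37268743 to 37337852, reverse). Fgfbp3 and Btaf1 lie head to head with 6.5 kb between their starts, and 8.5 kb separate the end of Btaf1 from that of Cpeb3. Cpeb3 and March5 start head to head as well and overlap by 1.1 kb. The probes of these genes are not listed in the tables used here, so levels are compared within a gene and never between genes.

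The promoters of Btaf1, Ide and Fgfbp3 are shown because these genes had the lowest ratios of HF to MF. Each run is the 250 bases before the outermost GENCODE start of the gene, 5′ to 3′ on its own strand, read from GRCm38. Capitals mark a match to any of 6 motifs searched on both strands: the TATA box read as TATAAA, the CCAAT box as its name, the GC box read as GGGCGG, the cAMP response element read as TGACGTCA, the E-box read as CACGTG and the ETS motif read as CTTCCGG.
Btaf1, chr19:36925829-36926078, forward: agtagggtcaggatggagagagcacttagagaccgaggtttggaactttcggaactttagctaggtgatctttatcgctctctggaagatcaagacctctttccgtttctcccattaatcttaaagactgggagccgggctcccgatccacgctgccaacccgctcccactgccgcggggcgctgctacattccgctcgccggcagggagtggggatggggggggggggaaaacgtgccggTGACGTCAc
Ide, chr19:37337853-37338102, reverse: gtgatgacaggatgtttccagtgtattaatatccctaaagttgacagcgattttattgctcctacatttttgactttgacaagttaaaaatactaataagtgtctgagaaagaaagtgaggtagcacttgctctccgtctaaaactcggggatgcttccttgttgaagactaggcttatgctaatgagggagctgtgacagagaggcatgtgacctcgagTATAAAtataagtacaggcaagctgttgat
Fgfbp3, chr19:36919616-36919865, reverse: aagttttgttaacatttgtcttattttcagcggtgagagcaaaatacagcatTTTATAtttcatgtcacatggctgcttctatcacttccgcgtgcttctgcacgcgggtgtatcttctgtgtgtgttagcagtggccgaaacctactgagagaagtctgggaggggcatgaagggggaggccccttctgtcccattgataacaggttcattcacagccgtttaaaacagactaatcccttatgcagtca

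The Btaf1 window holds a cAMP response element whose first base lies 9 bases before the start, a motif present in 1.97% of 21931 windows of the same length before protein-coding genes. The Ide window holds TATAAA 30 bases before the start, and the Fgfbp3 window holds it on the other strand 198 bases before. TATAAA occurs in 11.5% of all windows, the CCAAT box in 36.0%, GGGCGG in 39.0%, CACGTG in 6.53% and CTTCCGG in 8.03%. None of the 6 motifs is shared by the 3 windows. G and C make up 58.4% of the Btaf1 window, 40% of the Ide window and 45.6% of the Fgfbp3 window. A match in these letters is not evidence of a bound factor.

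The sections held between 34982061 and 90096877 UMIs in 3197 to 3598 kept spots, and MF replicate 1 was the deepest. Levels are given as counts per 1e6 UMIs of the same section and area (CPM), and areas are groups of spots named from region markers. A spot covers several cells, so fewer cells of a type and less RNA per cell cannot be told apart. Btaf1 had between 1306 and 6411 UMIs per section, Ide between 1617 and 7183, and Fgfbp3, the most sparsely counted of the 8, between 390 and 1202.

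Btaf1 was lower in the HF sections, over the whole section and in each of the 6 regions. Its level was 71.2 CPM in MF replicate 1 and 70.4 in MF replicate 2, against 37.3 in HF replicate 1 and 37.7 in HF replicate 2. The sections of a diet were close to each other and far from those of the other diet, and every one of the 4 ratios of an HF to an MF section lay between 0.525 and 0.535. In the fit across all genes, HF minus MF was -0.93 ± 0.07 on the log2 scale (SE, 2 sections per diet), a ratio of 0.527.

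Ide was lower in HF as well, with a wider gap between the HF sections. It measured 79.7 CPM in MF replicate 1 and 76.2 in MF replicate 2, and 46.2 in HF replicate 1 and 55.1 in HF replicate 2. The diets did not overlap, and the section ratios of HF to MF ran from 0.580 to 0.724. HF minus MF was -0.63 ± 0.11 on the log2 scale, a ratio of 0.647.

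Fgfbp3 measured 13.3 CPM in MF replicate 1 and 15.5 in MF replicate 2, and 11.4 in HF replicate 1 and 9.18 in HF replicate 2. Both HF sections again lay below both MF sections, but the spread within a diet was larger than for Btaf1. HF minus MF was -0.50 ± 0.14 on the log2 scale, with section ratios from 0.592 to 0.853.

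The other 5 genes differed by much less, although Cpeb3 and March5 lie between Btaf1 and Ide. Cpeb3 measured 62.1 and 62.9 CPM in MF and 72.4 and 62.8 in HF, which overlap. March5 measured 34.4 and 33.1 CPM in MF and 34.0 and 34.8 in HF. Their log2 differences of HF minus MF were 0.10 ± 0.09 and 0.02 ± 0.08.

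On the other side of Btaf1, Tnks2 measured 110.1 and 111.2 CPM in MF and 107.1 and 99.6 in HF, a log2 difference of -0.11 ± 0.07. Ppp1r3c measured 24.8 and 28.1 CPM in MF and 27.9 and 21.1 in HF, with a difference of -0.12 ± 0.14. Hectd2, the gene farthest from Btaf1 on that side, measured 28.5 and 30.1 CPM in MF and 35.9 and 33.5 in HF. It was the single gene of the 8 with both HF sections above both MF sections, and its difference was 0.24 ± 0.08.

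Over the whole section, both HF sections lay below both MF sections for 4 of the 8 genes, namely Tnks2, Fgfbp3, Btaf1 and Ide, and above them for 1. Among all 14971 genes tested, 17.9% lay below in this way and 21.8% above, and the median log2 difference was 0.002. No gene at all was called over the whole section, where a call needs both a fold of 1.2 or more and a Benjamini-Hochberg adjusted p-value below 0.05 in the quasi-likelihood test of edgeR. In that test 1020 genes had an unadjusted p-value under 0.05, and DESeq2 called 22 genes. Btaf1 and Ide were among these 22, but they were chosen with this contrast known, so nothing is read from that.

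**Figure D1:**
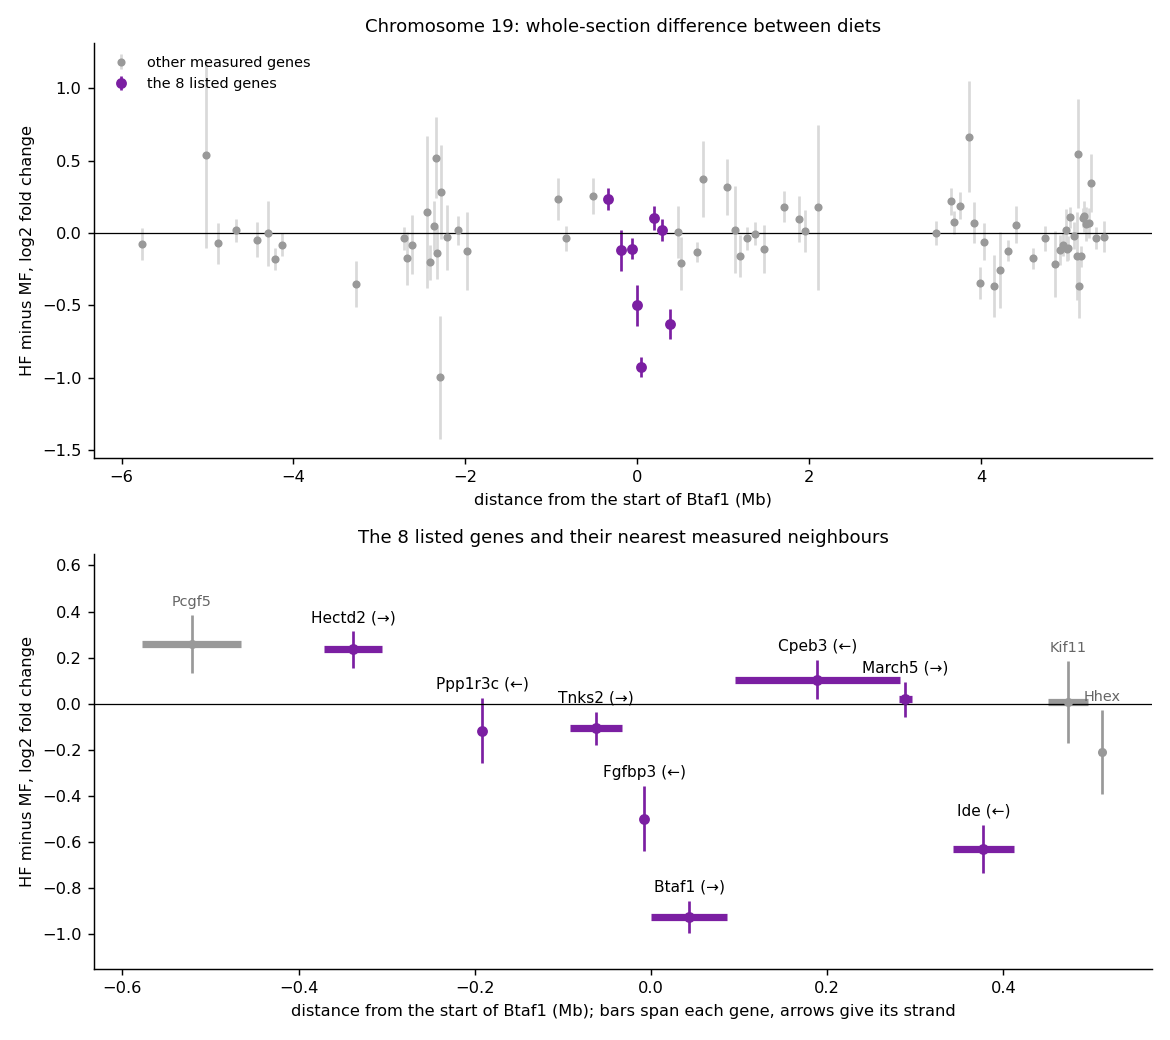
HF minus MF over the whole section (log2 fold change, y axis) against distance from the start of Btaf1 in Mb (x axis), with bars of 1 SE; the upper panel holds the tested genes within 5 Mb and the lower panel the 8 listed genes, drawn at their true lengths, with the closest neighbours in grey. Btaf1 at -0.93, Ide at -0.63 and Fgfbp3 at -0.50 lie below the rest of the block, while Cpeb3 and March5, between Btaf1 and Ide, sit at 0.10 and 0.02.

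The flanking genes were not part of the choice. Within 5 Mb on either side, 92 further features were measured and 72 passed the filter on low counts, with a median log2 difference of -0.03. Of the 72, both HF sections lay below both MF sections in 16 and above in 11, where 17.9% and 21.8% of all genes tested did so. A single gene had a log2 difference under -0.5, Ifit1bl2, picked out here after its value was seen, with 0.141 to 0.471 CPM and a difference of -0.997 ± 0.424. The nearest tested neighbour before the block was Pcgf5, a Polycomb ring finger gene 0.094 Mb from Hectd2, with a difference of 0.26 ± 0.13 and both HF sections above both MF sections. After the block it was Kif11, a mitotic kinesin gene 0.039 Mb from Ide, with 0.01 ± 0.18.

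Farther before the block, Rpp30, a subunit of ribonuclease P, differed by -0.04 ± 0.09, the serotonin receptor gene Htr7 by 0.24 ± 0.15, the kinesin gene Kif20b by -0.12 ± 0.27 and Pank1, of coenzyme A synthesis, by 0.02 ± 0.10. After it, the homeobox gene Hhex differed by -0.21 ± 0.18, the exocyst gene Exoc6 by -0.13 ± 0.07, the retinoic acid hydroxylase gene Cyp26c1 by 0.37 ± 0.26 and Myof, which encodes myoferlin, by 0.32 ± 0.19. None of these 10 was called (edgeR adjusted p-values from 0.73 to 0.99). This fit called 0 of 14971 genes over the whole section, so the lack of a call there does not show that a neighbour is unchanged. Of all 72, the single gene called in any area was Opalin, an oligodendrocyte gene 3.724 Mb after the block, in the cortex. Opalin measured 217.1 and 208.1 CPM over the whole section in MF and 126.6 and 204.6 in HF. Across all tested genes, 0.247% were called in the whole section or at least 1 region.

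Seen area by area, the Btaf1 difference was present in all 6 regions. In the cortex, Btaf1 measured 74.7 and 73.9 CPM in MF and 39.3 and 41.4 in HF. In the hippocampus it measured 79.2 and 85.7 CPM in MF and 44.0 and 45.5 in HF. The 2 diets were far apart in both regions, and the log2 differences were -0.87 ± 0.10 and -0.86 ± 0.12.

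The difference had its largest size in the hypothalamus. Btaf1 measured 66.7 and 68.2 CPM there in MF and 31.6 and 31.9 in HF, a log2 difference of -1.10 ± 0.11. The hypothalamic cluster led by Agrp, Pomc and Ghrh had 113 and 81 spots in MF, 103 in HF replicate 1 and 2 in HF replicate 2. The part of this unevenness in the hypothalamic values was not tested. In the thalamus Btaf1 measured 66.0 and 64.2 CPM in MF and 37.1 and 31.0 in HF, a difference of -0.94 ± 0.11. The striatum had 75.8 and 73.5 CPM in MF and 36.2 and 45.5 in HF, and its HF sections differed from each other more than elsewhere. White matter, with 67.6 and 73.5 CPM in MF and 46.7 and 40.7 in HF, had the smallest difference, -0.72 ± 0.14. Over all 6 regions, no ratio of an HF to an MF section was under 0.464 or over 0.691.

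Ide was lower in both HF sections in all 6 regions too, with log2 differences from -0.80 ± 0.19 in the striatum to -0.48 ± 0.14 in the hippocampus. The value in the hippocampus was -0.24 with thinned spots, -0.29 without HF replicate 1 and -0.74 without HF replicate 2. In the cortex it measured 82.2 and 82.0 CPM in MF and 46.4 and 54.6 in HF. In white matter it measured 91.3 and 97.0 CPM in MF and 57.6 and 69.2 in HF. HF replicate 1 was the lower of the HF sections in all 6 regions. Fgfbp3 was separated by diet in 4 regions, the cortex, hippocampus, thalamus and hypothalamus, and overlapped in the striatum and white matter. Its cortical levels were 13.9 and 17.4 CPM in MF and 9.16 and 8.80 in HF, a log2 difference of -0.75 ± 0.18. In the hippocampus its difference of -0.37 ± 0.21 became 0.04 when spots were thinned to 5000 UMIs. Thinning also left out the spots under 5000 UMIs, so depth and the choice of spots change together in this setting. The median per spot was 9286 UMIs in HF replicate 1 and 23543.5 in MF replicate 1, and the spots left out were not counted.

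Tnks2 was separated by diet, with lower HF levels, in the thalamus and hypothalamus. Its 6 regional log2 differences ran from -0.21 to -0.03. Ppp1r3c was lower in HF in the striatum, with 30.9 and 38.3 CPM in MF and 24.9 and 19.6 in HF, and in white matter, and overlapped in the other 4. Both HF sections of Hectd2 lay above both MF sections in the cortex, hippocampus, striatum and white matter. In white matter its log2 difference was 0.06 ± 0.18 and turned to -0.06 when spots were thinned to 5000 UMIs. The hippocampal cluster led by Dsp, Igfbpl1 and C1ql2, where Hectd2 was highest, had 43 and 39 spots in MF and 46 and 61 in HF. The hippocampus held 269 and 239 spots in MF and 227 and 303 in HF. The part of this makeup in the Hectd2 values was not tested. Cpeb3 was higher in the thalamus and hypothalamus, at 68.1 and 69.7 CPM in MF and 81.4 and 77.1 in HF in the latter. March5 was higher in the cortex and thalamus. Over the whole section 21.8% of all genes tested had both HF sections above both MF sections. That share was not computed for single regions, so nothing is read from the regional cases above.

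**Figure D2:**
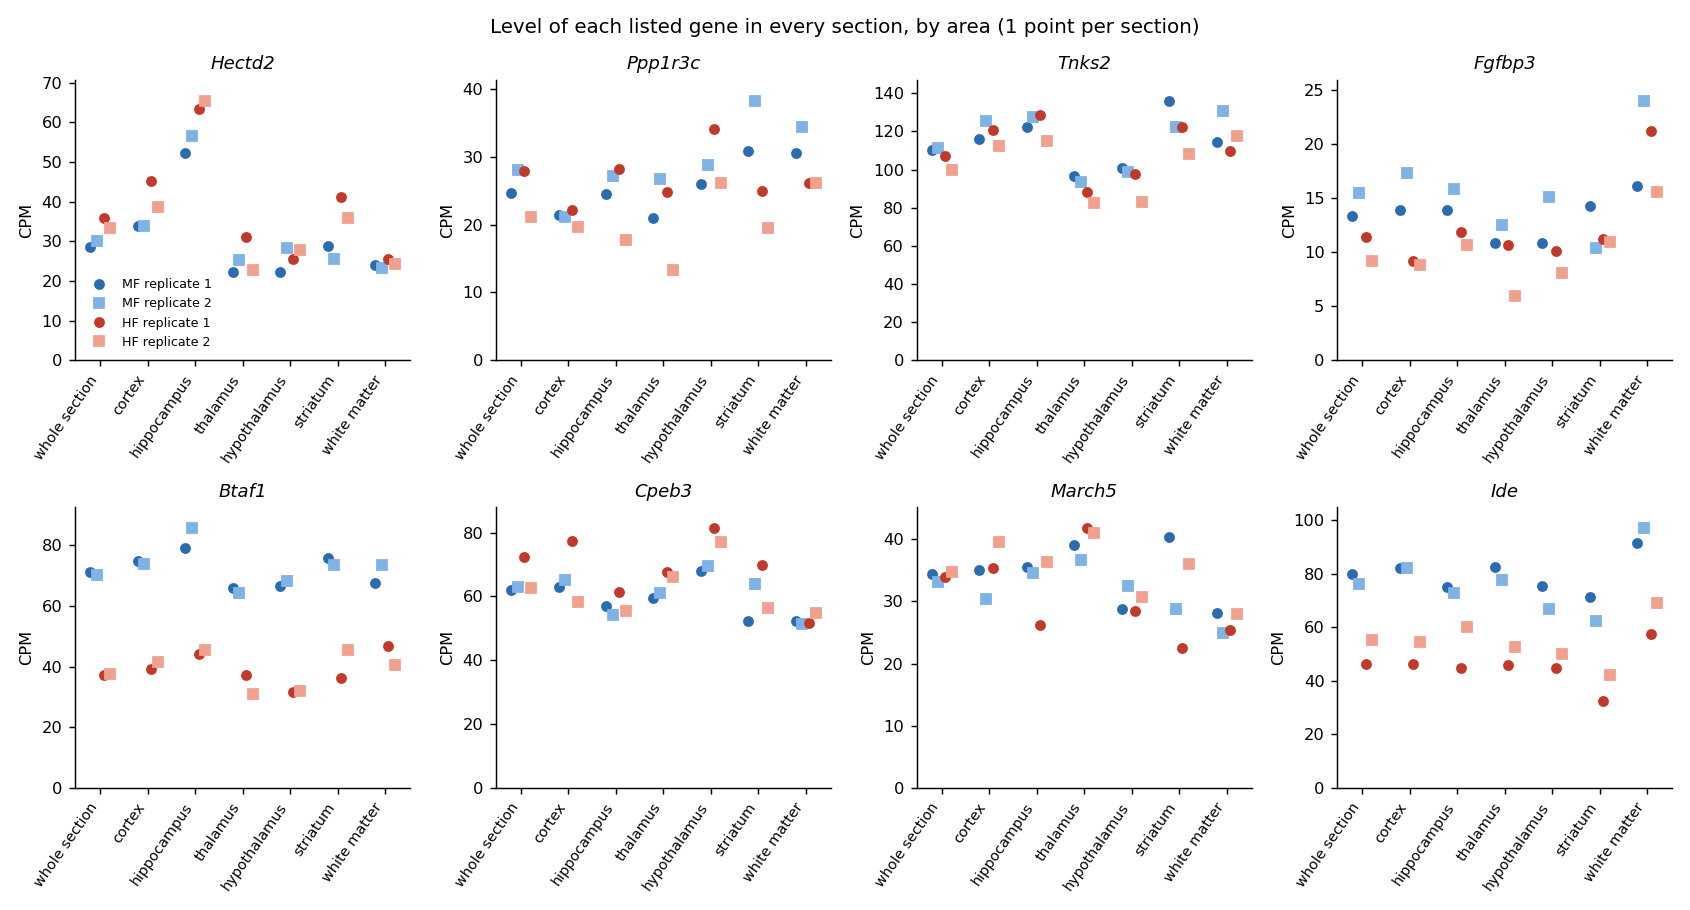
CPM of each of the 8 genes (y axis, from 0) in the whole section and in 6 regions (x axis), with 1 point for each of the 4 sections; blue marks MF and red HF, circles replicate 1 and squares replicate 2. The red points of Btaf1 and Ide lie below the blue ones in all 7 columns, and those of Cpeb3, March5, Tnks2 and Ppp1r3c mix with the blue ones in most.

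The number of listed genes with both HF sections below both MF sections was 3 in the cortex, where 21.5% of all genes tested lay that way, and 3 in the hippocampus (19.3%). It was 4 in the thalamus (17.8%) and in the hypothalamus (16.9%), and 3 in the striatum (17.4%) and in white matter (16.6%). Btaf1 and Ide were among the genes called lower in the cortex, where 0.0921% of all genes were, and Btaf1 in the hippocampus, with 0.0889%. These counts rest on the contrast by which the genes were chosen, and nothing is read from them.

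The region by diet term asks whether the difference between the diets itself differed between regions, a separate contrast from the overall difference. No listed gene passed it (edgeR, section as a block, adjusted p-values from 0.74 for Ppp1r3c to 0.99 for Cpeb3, 0.85 for Btaf1 and 0.90 for Ide), and 0.044% of 13647 genes did. The regional values of Btaf1, from -1.10 to -0.72, therefore could not be separated at this number of sections, which does not show that they are equal.

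Markers of cell types were read beside these values. All 7 lists had every measured marker above 0 in every section. Oligodendrocyte markers were lower in HF, at 24490 and 25640 summed CPM in MF and 20540 and 21780 in HF, and 7 of the 8 markers had both HF sections below both MF sections. In the cortex and in the hippocampus all 8 did. For neurons, 2 of 7 markers were below and 2 above over the whole section, with sums from 6410 to 6738 CPM. Astrocyte sums ran from 2745 to 3127 CPM, with 1 of 8 markers below and 1 above. In the cortex, 5 of 8 astrocyte and 4 of 7 microglia markers were below as well, with 0 and 1 above. In the hippocampus it was 2 of 8 and 1 of 7, with 1 and 0 above. Neurons had 2 of 7 below and 1 above in each of these regions. Region markers were read over the whole section as well. The HF sections were both above in 10 of 13 ventricle, 8 of 15 hippocampus and 7 of 14 cortex markers, with 0 below. They were both below in 13 of 14 white matter and 7 of 14 hypothalamus markers, with 0 above. The lists of the thalamus, striatum, habenula and meninges had 0 below and 0 to 3 above. Among all genes tested, 17.9% lay below and 21.8% above over the whole section. In the cortex 21.5% lay below, and in the hippocampus 19.3%. The part of these marker differences in the values of the listed genes was not tested.

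At finer scale, the 4 sections gave 30 clusters of spots, and 28 of them had at least 5 spots in every section and were used. Btaf1 had both HF sections below both MF sections in all 28. Of the 14971 genes tested, 1 did so in as many clusters, which is Btaf1 itself, or 0.00668%. Ide was below in 24 clusters, and 0.1% of the genes reached as many. Fgfbp3 was below in 17, Tnks2 in 9, Ppp1r3c and March5 in 6, Cpeb3 in 3 and Hectd2 in 2. In the opposite direction, Hectd2 was above in 13, March5 in 7, Cpeb3 in 5, Tnks2 in 3 and Ppp1r3c in 2. For the genes other than Btaf1 and Ide, the share of all genes that reached these counts was not computed. The clusters share the 4 sections, so they are not separate replicates. The counts and shares also rest on the contrast by which the genes were chosen, and nothing is read from them.

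The median log2 ratio of HF to MF over the 28 clusters was -0.93 for Btaf1, and the values ran from -1.69 to -0.63. The lowest belonged to the cluster led by Ttr, Tmem72 and Folr1, genes of the choroid plexus, which had 46 spots and 75 Btaf1 UMIs in all. The highest belonged to the white matter cluster led by Gsn, Enpp6 and Mag. For Ide the median was -0.63 and the range -0.93 to -0.22, with a lower HF mean in all 28. Ide overlapped between the diets in 4 clusters, which were the Ttr cluster, one of the habenula led by Gpr151, Pou4f1 and Irx2, one of the hippocampus led by Il16, Ccbe1 and Ptgs2, and an unnamed one led by Tshz2, Igfn1 and Lamp5. The median was -0.57 for Fgfbp3 and 0.25 for Hectd2, and between -0.16 and 0.09 for the other 4 genes.

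**Figure D3:**
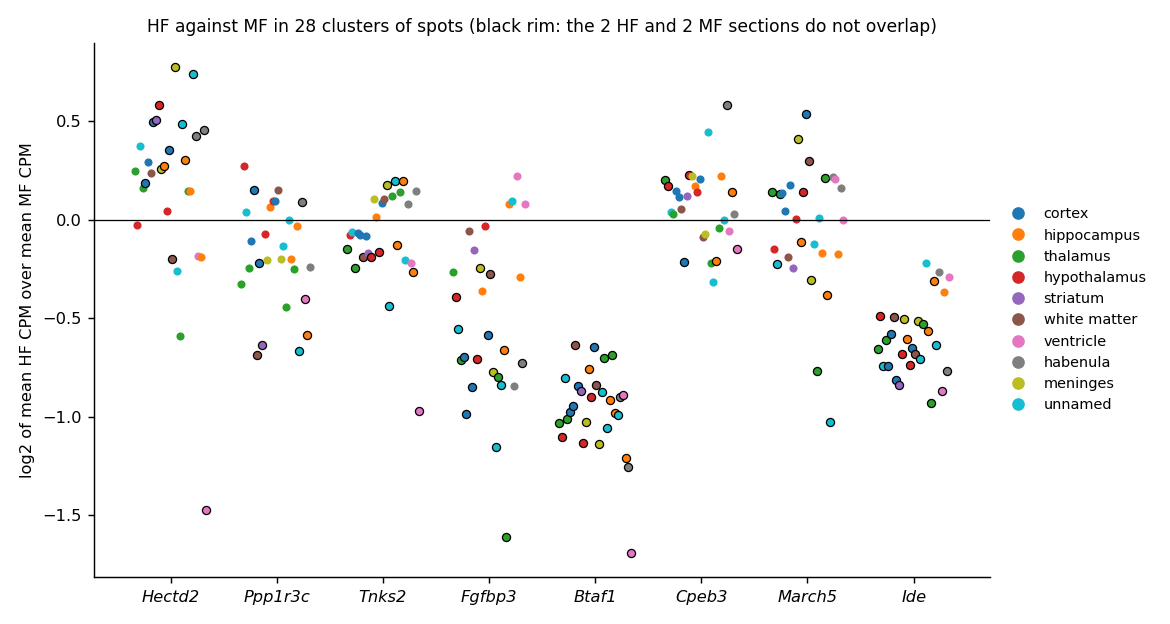
Log2 of the mean HF over the mean MF level (y axis) of each gene in 28 clusters of spots, with 1 point per cluster, coloured by its region, and a black rim where the 2 HF and the 2 MF sections do not overlap. All 28 points of Btaf1 and of Ide lie below 0, whereas those of Cpeb3, March5, Tnks2 and Ppp1r3c scatter to either side; a Ppp1r3c point with an MF section at 0 is not drawn.

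Levels were also read by position, without the clusters. Each section was divided into tiles of 6 array rows by 12 array columns, with at least 12 spots. The median Btaf1 level over tiles was 70.4 and 70.0 CPM in the MF sections, 36.3 in HF replicate 1 and 37.2 in HF replicate 2. Of the 92 tiles of HF replicate 1, 91 lay below 70.2 CPM, the median over the MF tiles, and 99 of 100 did in HF replicate 2. For Ide, 89 of 92 and 94 of 100 tiles lay below the MF median of 78.1 CPM. For Cpeb3, 28 of 92 and 52 of 100 lay below 61.5 CPM, so HF replicate 1 stood above the other sections. Neighbouring tiles share a library and are not replicates.

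**Figure D4:**
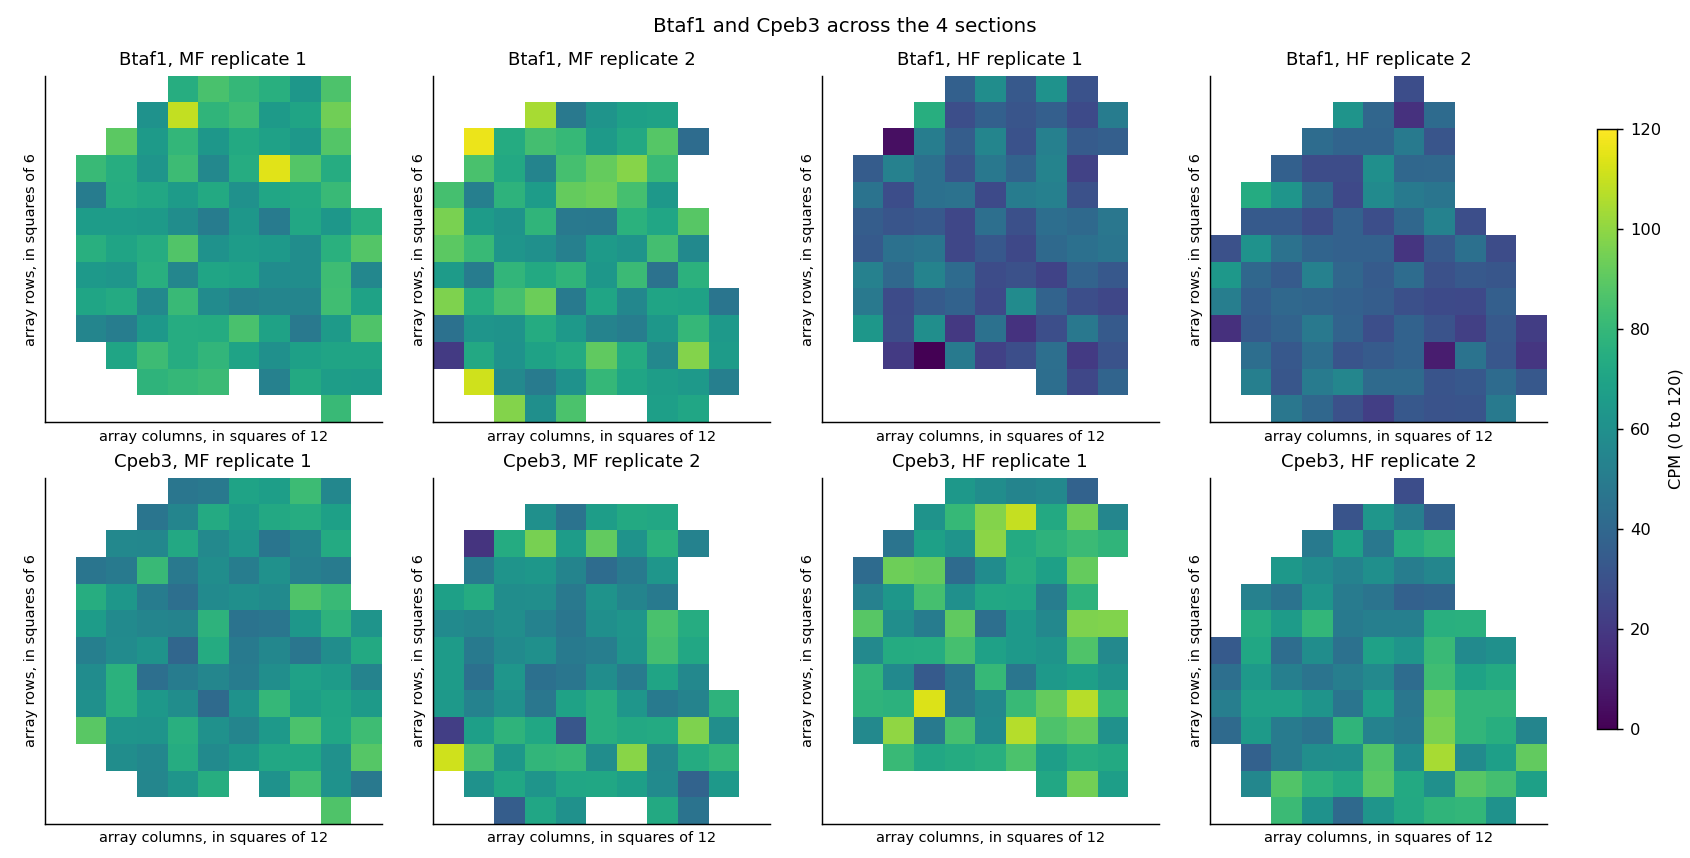
Maps of the 4 sections for Btaf1 (upper row) and Cpeb3 (lower row), with array rows and columns as axes; each tile is 6 rows by 12 columns and its colour gives CPM from 0 to 120. Btaf1 is darker over the whole of both HF sections, with tile medians of 36.3 and 37.2 CPM against 70.4 and 70.0, and the tile median of Cpeb3, between 60.6 and 62.1 CPM elsewhere, is 72.0 for HF replicate 1.

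Within a section, Btaf1 had a low score for spatial pattern between single spots. Moran's I, which is near 0 for a gene scattered without pattern and rises with patches of like level, was 0.0091 and 0.0070 for Btaf1 in MF and 0.0060 and 0.0044 in HF. Between 32.7% and 39.8% of the features listed for a section had a lower value. A score near 0 at few UMIs per spot does not show an even level. Summed over clusters, Btaf1 in MF replicate 1 ran from 56.1 to 109.1 CPM. The lowest cluster was an unnamed one led by Six3, Pvalb and Pln, and the highest the hippocampal one led by Dsp, Igfbpl1 and C1ql2. Hectd2 had the most pattern of the 8, with 0.0238 to 0.0660, and exceeded 67.9% to 80.1% of the features. Ide ranged from 0.0138 to 0.0414. MF replicate 1, the deepest section, had the highest value for Hectd2, Ppp1r3c, March5, Btaf1 and Ide, and the part of depth in these values was not tested.

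Regions were then compared with each other inside sections, a contrast that played no part in the choice of the genes. The listed genes, their flanks and the partner genes below were kept out of the clustering that defined the regions. Of 48 pairs of a gene and a region, 6 were called higher and 12 lower than the other regions (edgeR, section as a block, fold of 1.2 or more and adjusted p-value below 0.05).

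Btaf1 was lower in the hypothalamus than in the other regions, with a log2 ratio of -0.33 ± 0.05 (adjusted p = 1.4e-06). The call was lost when the sums were scaled by library size alone (-0.20) or when spots were thinned to 5000 UMIs (-0.22), both short of 1.2-fold. Its mean level was highest in the hippocampus, at 82.4 ± 4.58 CPM in MF (SD, n = 2) and 44.8 ± 1.06 in HF, and the hippocampus stood 0.23 ± 0.06 above the other regions, short of 1.2-fold (adjusted p = 0.00098). In MF the order went on with striatum at 74.7, cortex at 74.3, white matter at 70.6, hypothalamus at 67.4 and thalamus at 65.1 CPM. In HF the hypothalamus was the lowest, at 31.8 CPM, with the thalamus at 34.1. The lowest region thus differed between the diets, and the ratio of the hypothalamus was not computed for each diet. Striatum and cortex did not keep one order in all sections, and neither did cortex and white matter. White matter exceeded the hypothalamus in all 4 sections. Among the 28 clusters Btaf1 was highest in the hippocampal one led by Dsp, Igfbpl1 and C1ql2, genes of dentate granule cells, with 109.1 and 101.0 CPM in MF and 54.1 and 57.3 in HF.

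Ide was higher in white matter than in the other regions, by 0.41 ± 0.05 on the log2 scale (adjusted p = 3e-08), and it was lower in the striatum, by -0.33 ± 0.07 (adjusted p = 0.00051), a call that was lost with thinned spots (-0.315). White matter exceeded the cortex, the next in order, in all 4 sections, and the hypothalamus exceeded the striatum in all 4. Cortex, thalamus and hippocampus lay at 66.3, 64.8 and 63.1 CPM on average, and their order varied between sections. The highest cluster was again the white matter one led by Gsn, Enpp6 and Mag, at 81.9 ± 16.5 CPM (SD, n = 4, both diets).

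Fgfbp3 was also higher in white matter, by 0.69 ± 0.11 (adjusted p = 3.3e-06), and lower in the hypothalamus, by -0.38 ± 0.10, and thalamus, by -0.37 ± 0.10. The call in the hypothalamus was lost with library size alone (-0.25) and with thinned spots (-0.35), and that in the thalamus with thinned spots (-0.21). White matter had 16.11 and 24.04 CPM in MF and 21.2 and 15.6 in HF. It exceeded the hippocampus, second in order, in all 4 sections, and no further step of the order held in all 4. With 9 to 315 Fgfbp3 UMIs per region and section, finer steps were not detectable at this depth.

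Ppp1r3c was higher in white matter, by 0.35 ± 0.09, and lower in the thalamus, by -0.27 ± 0.08, a call lost without MF replicate 1 (-0.26) or without HF replicate 2 (-0.21). Its level in the meningeal cluster led by Eln, Acta2 and Tagln, at 55.8 ± 11.9 CPM (SD, n = 4), was the highest of the 28. Tnks2 was lower in the hypothalamus, by -0.39 ± 0.04, and thalamus, by -0.33 ± 0.04, and its other 4 regions lay between 118.3 and 123.3 CPM without a fixed order. With library size alone the hypothalamus stood at -0.26, short of the call.

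Hectd2 had the steepest regional pattern. It measured 52.3, 56.6, 63.4 and 65.5 CPM in the hippocampus of the 4 sections, against 33.8 to 45.3 in the cortex, and the hippocampus was 1.04 ± 0.07 above the other regions on the log2 scale (adjusted p = 1.5e-15). The cortex was higher as well, by 0.32 ± 0.06 (0.25 and not called with library size alone), and the hypothalamus, thalamus and white matter were lower, by -0.52 ± 0.07, -0.41 ± 0.06 and -0.41 ± 0.08. The cluster led by Dsp, Igfbpl1 and C1ql2 had 75.3 and 79.7 CPM in MF and 100.5 and 90.7 in HF, the highest of the 28.

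March5 was higher in the thalamus, by 0.34 ± 0.06 (adjusted p = 1.5e-05), and lower in the hypothalamus, by -0.30 ± 0.07, and in white matter, by -0.30 ± 0.09. Its call in the hypothalamus was lost with library size alone (-0.16), with thinned spots (-0.16) and without MF replicate 1 (-0.23). Cpeb3 was the gene of the 8 with no region past both thresholds. Its means ran from 74.1 CPM in the hypothalamus to 52.5 in white matter, with the hypothalamus above the cortex and the hippocampus above white matter in all 4 sections.

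Set beside all genes, the hypothalamus was lower for 5 of the 8 genes (20.5% of 13647 genes were), of which Hectd2 alone kept its call with library size alone, and the thalamus for 4 (19.5%), and the striatum for 1 (9.98%). White matter was higher for 3 (22.1%) and lower for 2 (19.2%). The cortex was higher for 1 (18.0%), as were the hippocampus (15%) and the thalamus (16.3%). The regional order differed between neighbours on the chromosome, with Hectd2 high in the hippocampus, Ide and Fgfbp3 high in white matter and March5 low there.

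**Figure D5:**
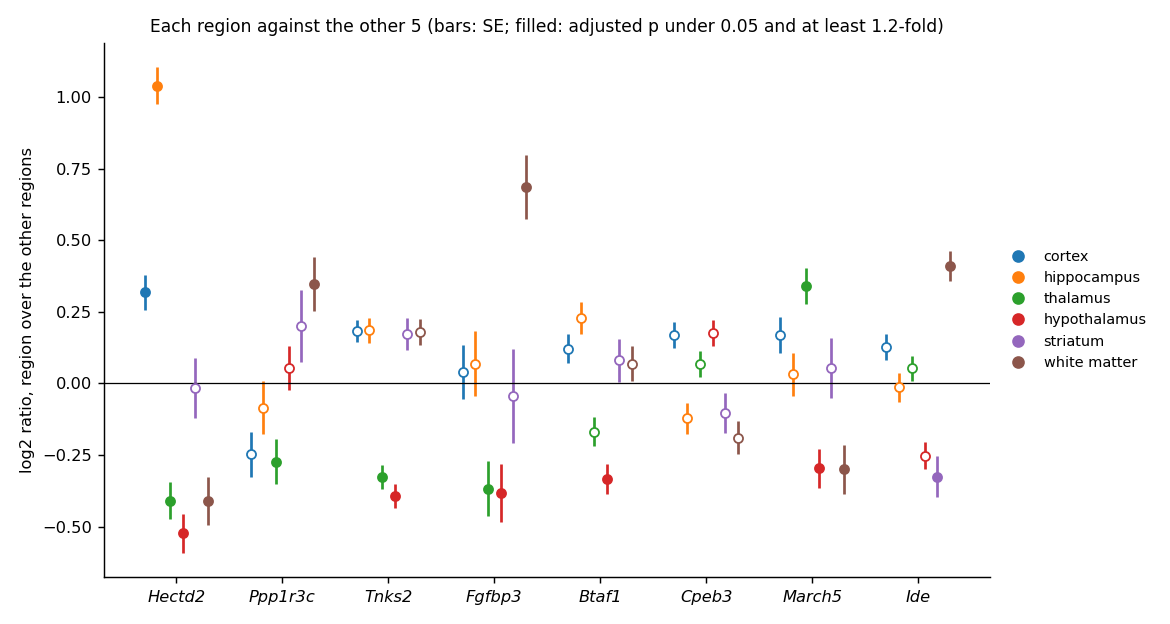
Log2 ratio of each of 6 regions to the other 5 (y axis, bars of 1 SE) for the 8 genes, with filled points where the ratio reached 1.2-fold with an adjusted p-value below 0.05. Hectd2 in the hippocampus (1.04) and Fgfbp3 in white matter (0.69) stand out, and the hypothalamus lies below 0 for Hectd2, Tnks2, Fgfbp3, Btaf1, March5 and Ide.

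Genes whose level followed Btaf1 were ranked by Pearson r of log2(CPM + 1) over the 24 sums of a region and a section, which share the 4 libraries and their depth. The first was Osbp (r = 0.89), which encodes a sterol carrier, followed by the deacetylase gene Sirt1 (0.84), the RNA-binding protein gene Hnrnpdl (0.83), the chaperone gene Dnajb11 (0.82) and the RNA helicase gene Ddx3x (0.81). Osbp lies on chromosome 19 too, outside the window examined. Its level was 57.9 and 56.7 CPM in MF and 42.4 and 43.4 in HF, so it was lower in both HF sections. Ide ranked 7th at 0.80 and Fgfbp3 65th at 0.61 of 13647 genes. Tnks2 reached 0.50, Ppp1r3c 0.34, March5 0.03, Hectd2 -0.01 and Cpeb3 -0.49.

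After the mean of each region was subtracted, which leaves the differences between sections, the first 5 were the chaperone gene Canx (0.94), Osbp (0.93), Ide (0.93), Oacyl (0.92) and the nucleic acid-binding protein gene Cnbp (0.91). Canx measured 603.7 and 614.0 CPM in MF and 544.1 and 514.2 in HF, so a high r here goes with a small difference as well as with a large one. Oacyl had 5.65 and 5.12 CPM in MF and 1.97 and 2.80 in HF. These values follow the contrast that chose the genes and describe the 4 sections only.

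The partners of the 8 proteins were read from 8 lists. Of 114 genes listed, 109 passed the filter, and none was called over the whole section or in any region. Among all genes tested 0.247% were, so a count of 0 in a set of this size is near that share. Both HF sections lay below both MF sections in 20 of them and above in 23, where 17.9% and 21.8% of all genes tested did so. The medians of the lists ran from -0.02 to 0.04. The list around TBP, the protein on which Btaf1 acts, holds mostly subunits of TFIID and other general transcription factors and had 19 tested genes with a median log2 difference of 0.02, 2 of them below and 4 above. Its most abundant members were Drap1, a subunit of the NC2 repressor, at 240.0 and 239.4 CPM in MF and 234.8 and 259.7 in HF, and the TBP paralogue Tbpl1, at 95.7 and 96.7 CPM in MF and 98.2 and 90.9 in HF. Both overlapped between the diets. Tbp itself, named here after its values were seen, differed by -0.05 ± 0.09.

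For Ide, 12 genes of insulin and amyloid turnover had a median of -0.02, and App, the amyloid precursor, measured 2676 and 2599 CPM in MF and 2336 and 2868 in HF, while Bace1, the beta-secretase, differed by 0.00 ± 0.09. The 14 fibroblast growth factor genes tested for Fgfbp3 had a median of 0.00, with Fgf12 at -0.00 ± 0.08 and Fgf13 at 0.11 ± 0.10. The medians were 0.02 for 11 genes around Cpeb3, which include the AMPA receptor genes Gria1 (0.02 ± 0.07) and Gria2 (-0.06 ± 0.08), and 0.04 for 10 tankyrase partners, with Apc at -0.05 ± 0.08 and Gsk3b at 0.04 ± 0.08. They were -0.01 for 16 genes of glycogen metabolism, with the phosphatase genes Ppp1ca at -0.08 ± 0.08 and Ppp1cb at -0.11 ± 0.08. For 12 genes of mitochondrial dynamics the median was -0.01, with Fis1 at -0.10 ± 0.10 and Map1b at 0.15 ± 0.09, and for 15 HECT ligases it was 0.00, with Hectd4 at -0.08 ± 0.08 and Nedd4 at 0.01 ± 0.08. Over all 109 genes the differences stayed between -0.25 and 0.54, so no partner gene reached the value of Btaf1, Ide or of Fgfbp3 below 0.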

How the data were processed

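Per the file headers and the methods of the study, the authors aligned probe reads with Space Ranger to mm10 and deposited raw UMI counts per feature and spot for each of 4 sections. Moran's I was deposited as a score per feature, written by the same tool from all spots under tissue. The members and all gene lists were chosen with earlier results of these data known.

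Spots under 500 UMIs or 250 genes were left out, as in the study, which left 13452 spots. Sections were clustered together (leidenalg 0.10.2, resolution 1; scikit-learn 1.9.0) on variable genes scaled within each section, without the listed genes, their flanks or their partners, and clusters were named from fixed region markers. Of 30 clusters, 5 stayed unnamed. These regions were rebuilt here and may differ from those of the study. A spot can hold several cells, and doublets were not called.

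Counts were summed per section, per region and per cluster. edgeR 4.0.16 (R 4.3.3) with TMM scaling, filterByExpr and the quasi-likelihood test compared HF with MF over the 4 sections, and regions with section as a block, with Benjamini-Hochberg adjustment over all genes tested. The study tested single spots by Wilcoxon, but spots of a section are not replicates. Calls needed a fold of 1.2 or more and an adjusted p-value below 0.05. The scripts were tested on simulated data. Section totals ran from 34982061 to 90096877 UMIs, and 2 sections per diet limit the precision. Batches of the sections are not given in the sources used here, so batch and diet cannot be told apart. Genes were placed by GENCODE vM21 on GRCm38, where 19451 of 19465 features matched. The named genes were the 8 listed ones, the 5 nearest tested features on either side, any flanking feature called, the 2 most abundant genes of each partner list, the 5 genes most like Btaf1 by each of the 2 correlations, and the 3 leading genes of a cluster. Alternatives were library size alone, DESeq2 1.42.0, no filter on low counts, spots thinned to 5000 UMIs, the replicate number as a block, a Leiden resolution of 0.5, a flank window of 2 Mb and each section left out in turn. Thinning left out the spots under 5000 UMIs. A block with the numbers crossed was added after seeing the data.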

Additional observations from a re-analysis of the deposited data

How the results depend on the processing

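Btaf1 and Ide were lower in HF in the whole section and in all 6 regions under every alternative run. Leaving out 1 section at a time gave whole-section log2 differences from -0.95 to -0.91 for Btaf1, from -0.78 to -0.50 for Ide and from -0.014 to 0.053 for March5. Ppp1r3c ran from -0.31 to 0.06 in the same way. The sign of March5 turned without MF replicate 2 or without HF replicate 2, and that of Ppp1r3c without HF replicate 2. The other 6 genes kept their sign over the whole section. Apart from Btaf1 and Ide, each gene changed sign in at least 1 region under some alternative. Fgfbp3 reached 0.04 in the hippocampus when spots were thinned to 5000 UMIs, and 0.09 in the striatum and 0.17 in white matter with 1 section left out, and ran from -0.95 to -0.13 in the thalamus. With thinned spots, Hectd2 reached 0.96 in the striatum, and Ppp1r3c -0.34 in the striatum and -0.15 in white matter. A flank window of 2 Mb held 25 tested genes with a median of 0.02 and no call.

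The number of genes called between HF and MF depended strongly on the setting. Over the whole section 0 genes were called, against 22 with DESeq2, 5 with no filter, 1 with thinned spots and 0 to 1166 with 1 section left out. In the cortex 32 were called, against 20 with DESeq2, 114 with no filter, 21 at a Leiden resolution of 0.5 and 3 to 772 with 1 section left out. In the hippocampus 17 were called, against 104 with no filter, 6 with thinned spots and 6 to 529 with 1 section left out. In the thalamus 0 were called, against 5 with DESeq2, 88 with no filter, 1 with thinned spots and 0 to 665 with 1 section left out. In the hypothalamus 0 were called, against 6 with DESeq2, 43 with no filter and 0 to 820 with 1 section left out. In the striatum 8 were called, against 2 with DESeq2, 21 with no filter, 5 with thinned spots and 7 to 145 with 1 section left out. In white matter 7 were called, against 4 with DESeq2, 31 with no filter, 2 at the lower resolution and 10 to 38 with 1 section left out. The highest counts came without HF replicate 1, except in the thalamus, where they came without HF replicate 2. The cause was not tested.

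The replicate numbers did not pair the sections, since the correlation of same-numbered deviations lay between -0.18 and 0.05 over the 7 areas. With the replicate block, 0 genes were called over the whole section, 89 for cortex, 38 for hippocampus, 48 for thalamus, 5 for hypothalamus, 5 for striatum and 14 for white matter. The crossed replicate block called 11 over the whole section, 39 for cortex, 64 for hippocampus, 199 for thalamus, 0 for hypothalamus, 24 for striatum and 24 for white matter.

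In the cortex, the calls of Btaf1 and Ide were both lost without MF replicate 1, and that of Ide without MF replicate 2. In the hippocampus, the call of Btaf1 was lost with thinned spots. Calls were also gained, but on the contrast known when the genes were chosen, so nothing is read from them. Over the whole section Btaf1 was called with DESeq2, no filter, thinned spots, the crossed block or either HF section left out, and Ide with DESeq2, the crossed block or either HF section left out. In each of the other 4 regions both genes were called under at least 2 alternatives, and Fgfbp3 was called in the cortex with no filter, the replicate block or HF replicate 1 left out. Of the 18 calls of a listed gene in a region against the others, 10 held under every alternative run and none reversed. The region by diet term called 6 genes, against 288 with no filter, 18 at the lower resolution and 0 to 323 with 1 section left out, and no listed gene under any of these.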
